A study of Mus musculus with 8 samples.

Results

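The Hox cluster genes are the homeobox genes that lie side by side in the HoxA, HoxB, HoxC and HoxD clusters. They were taken here as every gene whose symbol is Hoxa, Hoxb, Hoxc or Hoxd followed by a number and that had a probe set annotated with that symbol alone. This gave 33 of the 39 Hox genes in the RefSeq gene table, among 18193 named genes on the array. There were 9 HoxA, 9 HoxB, 7 HoxC and 8 HoxD genes. The other 6 were not analysed here. Cells of the mouse embryonic stem cell line NG4 had been reverse transfected with siRNA against Sox2 (siSox2), Psmd14 (siPsmd14) or Ddb1 (siDdb1), or with a non-targeting siRNA (siNonTarget), and harvested 48 h later. Each group had 2 Affymetrix arrays, 8 in all, and all 4 groups were the same line with the same transfection and harvest time. Sox2 is a pluripotency transcription factor, Psmd14 is the deubiquitinase of the proteasome lid, and Ddb1 is the adaptor of CUL4 ubiquitin ligases. The labels do not state whether a group's arrays stem from different cultures. The p-values therefore measure only how far these arrays differ from each other, and that spread may be technical.

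Hox proteins are transcription factors that give cells their position along the head-to-tail axis and along the limbs. Within a cluster, genes of low paralogue number lie at the 3′ end and act towards the head, and genes of high number lie at the 5′ end and act towards the tail, the tips of the limbs and the genitalia. In embryonic stem cells the clusters are held silent by Polycomb complexes and carry both repressive and active histone marks. Retinoic acid, Wnt and Fgf signals and the Cdx factors open them in turn as the embryo lays down its trunk.

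Levels are given as log2 of the deposited intensity, and the array median is the middle value of all 45037 probe sets of an array. Those medians lay between 4.77 and 4.85. A level holds for its probe set only, since probe sets differ in how well they bind, so levels were not ranked between genes. In these bulk samples, fewer cells of a type and less RNA per cell cannot be told apart. Tests were made with limma over all probe sets, and a gene was called at an adjusted p of 0.05.

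The labels were checked on the targeted transcripts and on marker genes. Ddb1 signal was lower by 1.65 on the log2 scale in siDdb1 (SE 0.28, limma adjusted p = 0.147), Sox2 by 0.38 in siSox2 (SE 0.16, adjusted p = 0.301) and Psmd14 by 0.21 in siPsmd14 (SE 0.13, adjusted p = 0.522), none of them past the threshold. All 10 embryonic stem cell markers, Pou5f1, Nanog and the siRNA target Sox2 among them, lay above the array median on all 8 arrays. Against siNonTarget, 19.1% of all named genes had a limma unadjusted p of 0.05 in siSox2, 17.1% in siPsmd14 and 9.86% in siDdb1. Called were 4.28% in siSox2, 1.70% higher and 0.187% lower in siPsmd14, and 0.044% higher in siDdb1. Of the 10 markers, 0 were higher in siSox2 (median -0.39, 7 at an unadjusted p of 0.05, Sox2 itself among the 7). In siPsmd14 0 were higher (median -0.38, 5 at an unadjusted p of 0.05), and in siDdb1 2 were (median -0.14, 2 at an unadjusted p of 0.05). The only one called was the pluripotency factor gene Esrrb in siSox2 (-0.58, limma adjusted p = 0.0399), which missed the threshold without either siNonTarget array, either siSox2 array or either siDdb1 array (adjusted p = 0.0527 to 0.292). Embryonic fibroblasts, which can serve as feeder cells, carry active Hox genes, and of 15 measured fibroblast markers 7 lay below the array median on all 8 arrays and 3 above it. Those below included the fibroblast collagen genes Col1a1 and Col3a1 and the mesenchymal factors Twist2 and Prrx1, and those above were the collagen gene Col1a2 and the contractile cell genes Tagln and Acta2. In siSox2 3 markers rose, among them Tagln (1.87) and the collagen gene Col5a2 (1.73), and the surface protein gene Thy1 fell (-1.06), and in siPsmd14 Tagln (1.66) and the calcium-binding protein gene S100a4 (1.18) rose. Of these, Tagln missed the threshold in siSox2 without either siNonTarget array or siSox2 replicate 2 (limma adjusted p = 0.0699 to 0.0902), Col5a2 without any array other than siSox2 replicate 1 (0.0561 to 0.299), Thy1 without siNonTarget replicate 2 (0.0833) or siSox2 replicate 2 (0.0568), and both siPsmd14 calls without either siNonTarget array or siPsmd14 replicate 1 (0.06 to 0.19). The median difference of the 15 markers was 0.17 in siSox2, 0.07 in siPsmd14 and 0.04 in siDdb1. Summed over the 15 markers, fibroblast intensity was 3385 and 5827 in siSox2, 3298 and 4291 in siPsmd14, 2097 and 2816 in siDdb1, and 1432 and 1673 in siNonTarget, and the bright genes Tagln and Acta2 made up most of each sum. The part of these markers in the Hox values was not tested.

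Most Hox genes gave low signal in every group. Of the 33 genes, 24 lay below the array median on all 8 arrays and 4 lay above it on all 8, which is 12.1% of the Hox genes against 59.7% of all named genes. Single values ran from 2.66 to 6.40. The genes above the median throughout were Hoxc9, which patterns the thoracic spinal cord, the mid-cluster gene Hoxa7, the blood progenitor regulator Hoxa9, and Hoxa5, which acts in the lung and the lower neck. Hoxc9 read 6.34 and 6.17 in siSox2, 6.13 and 6.39 in siPsmd14, 6.26 and 6.40 in siDdb1, and 6.20 and 6.27 in siNonTarget. Hoxa7 read 5.79 and 6.14 in siSox2, 5.99 and 5.92 in siPsmd14, 6.26 and 5.98 in siDdb1, and 5.95 and 6.03 in siNonTarget. For both genes the values of each knockdown overlapped those of siNonTarget. Hoxa9 read 5.62 and 5.44 in siSox2, 5.71 and 5.61 in siPsmd14, 5.56 and 5.49 in siDdb1, and 5.63 and 5.82 in siNonTarget. Another Hoxa9 probe set lay between 2.86 and 3.46, below the median on all 8 arrays. Hoxa5 read 5.35 and 5.46 in siSox2, 5.70 and 5.38 in siPsmd14, 5.36 and 5.68 in siDdb1, and 5.69 and 5.37 in siNonTarget. The Hoxa5 values came from a probe set of the x type, which the manufacturer marks as able to bind other transcripts, and another Hoxa5 probe set lay between 3.08 and 3.38 on the 8 arrays. The other 5 genes, Hoxb9, Hoxc6, Hoxc13, Hoxd9 and Hoxd13, were above the median on some arrays only.

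**Figure D1:**
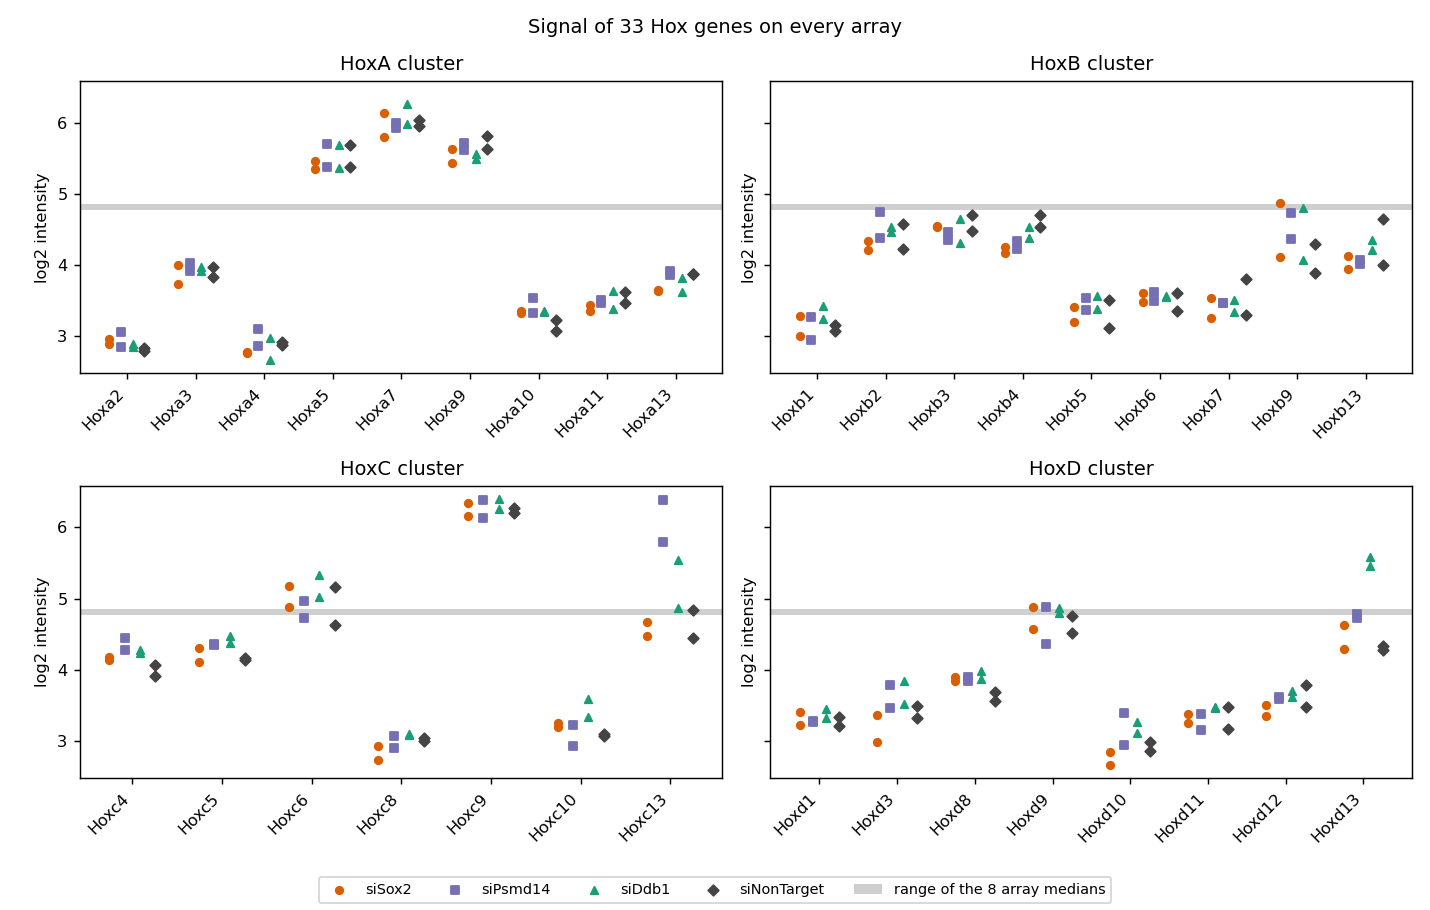
Signal of the 33 Hox genes (vertical axis, log2 intensity) on each of the 8 arrays, by cluster and in paralogue order; each point is an array, coloured by siRNA group, and the grey band spans the 8 array medians (4.77 to 4.85). 24 genes lie below the band on every array, and Hoxc13 and Hoxd13 have the widest spread.

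The Hox genes, most of them below the array median, varied little between arrays. They were set against all named genes only, not against genes of equally low signal. Whether the low signal narrowed their ranges was not tested. The median range from the lowest to the highest of the 8 arrays was 0.443 log2 for Hox genes and 0.53 for all named genes. The median SD within groups was 0.136 for Hox genes and 0.15 for all named genes. A range of at least 1 log2 was seen for 2 of the 33 Hox genes (6.06%) and for 14.7% of all named genes. These 2 were Hoxc13 (range 1.95) and Hoxd13 (range 1.31), the most 5′ members of HoxC and HoxD. Hoxb9, which patterns the ribs with its paralogues, came next at 0.981, and the replicates of a group differed for it by up to 0.76 (4.11 and 4.87 in siSox2).

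In siSox2, no Hox gene passed the threshold, while Cdx2, an activator of Hox genes in the trunk and a trophectoderm factor, rose 3.14-fold. Of the 33 Hox genes 0 were called by limma in siSox2 against siNonTarget, where 4.28% of all named genes were called. At an unadjusted p of 0.05 there was 1 Hox gene, and 19.1% of all named genes, and 0 Hox genes were called when eBayes was run with trend and robust settings. The median Hox difference was -0.03, the same to 2 decimals as the median of all genes (-0.03), with 14 genes above 0 and 19 below. All 33 differences were smaller than 0.5 in size, and for 32 of the 33 the 95% interval stayed within 2-fold either way, as it did for 89.8% of all named genes. The exception was Hoxb9, at 0.40 with an interval of -0.29 to 1.08, and its difference was 0.02 without siSox2 replicate 2 and 0.78 without siSox2 replicate 1. The groups did not overlap for 5 Hox genes on the higher side and 7 on the lower side, where 23.3% and 29.3% of all named genes did not overlap.

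The member with the smallest p in siSox2 was Hoxb4, known for its effect on blood stem cells and for the pattern of the neck vertebrae. Hoxb4 read 4.17 and 4.25 in siSox2, against 4.54 and 4.70 in siNonTarget. The groups did not overlap, and the difference of -0.41 (SE 0.13) had a limma adjusted p of 0.162. In siPsmd14 Hoxb4 read 4.22 and 4.34 (-0.34, adjusted p = 0.277), and in siDdb1 4.37 and 4.54 (-0.16, adjusted p = 0.836), and these comparisons share the siNonTarget arrays. The mean over both Hoxb4 probe sets gave -0.10 in siSox2. The other large differences in siSox2 were those of Hoxb9, the tail and prostate gene Hoxb13 and the trunk gene Hoxd8. Hoxb13 read 3.95 and 4.12 in siSox2 and 4.64 and 4.005 in siNonTarget (-0.29, adjusted p = 0.564), and without siNonTarget replicate 1 the difference was 0.03. Hoxd8 read 3.89 and 3.84 in siSox2 and 3.57 and 3.69 in siNonTarget (0.24, adjusted p = 0.407), and the mean over both of its probe sets gave 0.05.

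In siPsmd14, Hoxc13 rose 2.73-fold and no other Hox gene passed. Hoxc13 is the most 5′ gene of HoxC, required for hair and nails, where it switches on hair keratin genes. It read 6.39 and 5.80 in siPsmd14 and 4.84 and 4.44 in siNonTarget, with means of 6.09 ± 0.42 and 4.64 ± 0.28 (SD, n = 2 each). Both siPsmd14 values lay above every value of the other 3 groups, with siDdb1 at 5.54 and 4.86 and siSox2 at 4.68 and 4.47. The log2 difference from siNonTarget was 1.45 (SE 0.26, 95% interval 0.86 to 2.04, limma adjusted p = 0.0396). The call was thus 1 Hox gene of 33 higher, where 1.70% of all named genes were called higher and 0.187% lower. Leaving out siPsmd14 replicate 1 ended the call (1.15, limma adjusted p = 0.22), as did leaving out siNonTarget replicate 1 (1.65, adjusted p = 0.147), siNonTarget replicate 2 (1.25, adjusted p = 0.267) or either siSox2 array (1.45, adjusted p = 0.053). The 3′ to 5′ difference of the Actb control probe sets, a sign of RNA integrity, was highest on siPsmd14 replicate 1, at 0.346, and lay between 0.096 and 0.214 elsewhere. For 18S ribosomal RNA the top signals were 13.09 on siPsmd14 replicate 2 and 12.71 on siDdb1 replicate 2. Their part in the Hoxc13 difference was not tested.

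Other genes of the HoxC cluster did not pass in siPsmd14. The nearest measured gene, Hoxc10, which acts in the lumbar spinal cord, read 2.94 and 3.22 in siPsmd14 and 3.07 and 3.10 in siNonTarget (-0.01). The 3′ gene Hoxc4 read 4.28 and 4.45 in siPsmd14 and 3.91 and 4.07 in siNonTarget (0.38, SE 0.13, limma adjusted p = 0.209). Apart from Hoxc13 and Hoxc4, the 5 measured HoxC genes lay between -0.05 and 0.20. Hoxb9 read 4.73 and 4.36 in siPsmd14 and 3.89 and 4.30 in siNonTarget, a difference of 0.45 (adjusted p = 0.558) with an interval of -0.23 to 1.13. Hoxd13 read 4.72 and 4.78 in siPsmd14, above both siNonTarget arrays at 4.28 and 4.33 (0.45, SE 0.14, adjusted p = 0.185). The mean over both Hoxd13 probe sets gave 0.20. Over the 33 genes the median was 0.02, against -0.02 for all genes, with 19 genes above 0. At an unadjusted p of 0.05 there were 4 Hox genes, Hoxc13, Hoxd13, Hoxc4 and Hoxb4, and 17.1% of all named genes. The groups did not overlap for 8 Hox genes on the higher side and 2 on the lower side, where 22.4% and 24.1% of all named genes did not overlap. Among the epithelial keratins, which mark trophectoderm and simple epithelia, Krt8 rose 6.18-fold, Krt18 5.18-fold and Krt7 3.82-fold in the same arrays, and these were the 3 of 10 trophectoderm markers that passed. Each of the 3 missed the threshold without siNonTarget replicate 1, siNonTarget replicate 2 or siPsmd14 replicate 1 (limma adjusted p = 0.0576 to 0.203). The summed intensity of those 10 markers was 9191 and 11020 in siPsmd14, against 1868 and 2145 in siNonTarget. Whether cells with such markers carried the Hoxc13 signal was not tested.

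**Figure D2:**
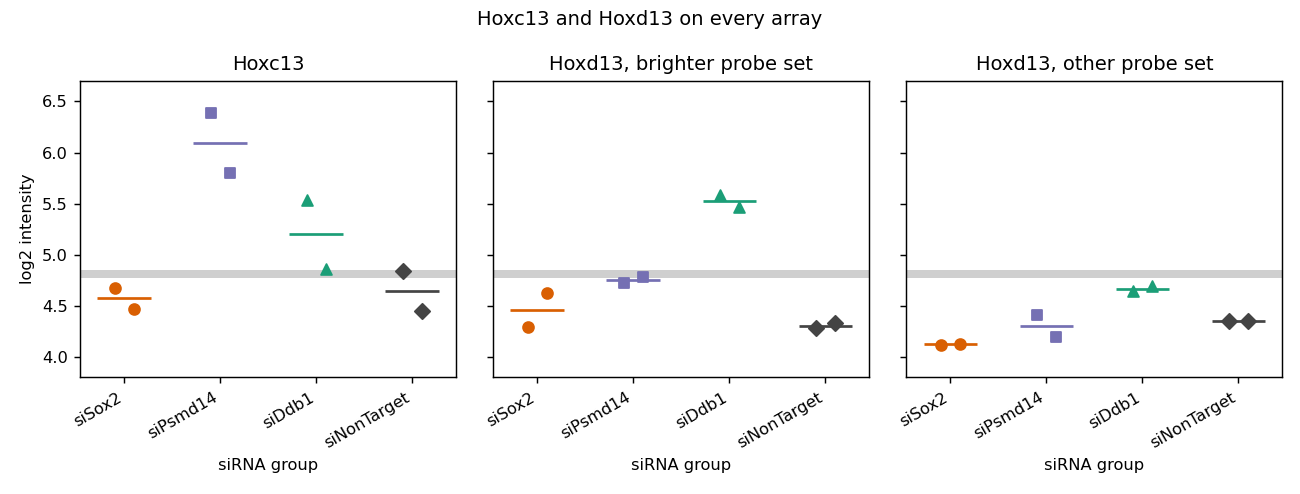
Log2 intensity of Hoxc13 and of both Hoxd13 probe sets on each array (points) with the mean of 2 arrays (lines), by siRNA group; the grey band spans the array medians. Hoxc13 is highest on the siPsmd14 arrays (6.39 and 5.80) and Hoxd13 on the siDdb1 arrays (5.58 and 5.46), and the other Hoxd13 probe set has its highest values, 4.64 and 4.69, in siDdb1 as well.

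In siDdb1, Hoxd13 rose 2.33-fold and no other Hox gene passed. Hoxd13 is the most 5′ gene of HoxD and shapes the digits and the external genitalia. It read 5.58 and 5.46 in siDdb1 and 4.28 and 4.33 in siNonTarget, with means of 5.52 ± 0.09 and 4.30 ± 0.04 (SD, n = 2 each). The siDdb1 values lay above the array medians and above every value of the other 3 groups, of which siPsmd14 (4.72 and 4.78) and siSox2 (4.29 and 4.63) stayed below the median of their own array. The log2 difference was 1.22 (SE 0.14, 95% interval 0.90 to 1.54, limma adjusted p = 0.049). It was 1 of 33 Hox genes called higher, where 0.044% of all named genes, 8 in number, were called higher and 0 lower. The call stood close to the threshold. It ended without siNonTarget replicate 1 (1.19, limma adjusted p = 0.524), siNonTarget replicate 2 (1.25, adjusted p = 0.454), siDdb1 replicate 1 (1.16, adjusted p = 0.366), either siSox2 array (1.22, adjusted p = 0.0681) or either siPsmd14 array (1.22, adjusted p = 0.105), and with only the 4 arrays of the comparison (1.22, adjusted p = 0.11). In the same arrays 9 of the 10 trophectoderm markers were above siNonTarget (median 0.59), with 0 called and 4 at an unadjusted p of 0.05. Their summed intensity was 3045 and 3345 in siDdb1, against 1868 and 2145 in siNonTarget, and the trophoblast factor gene Eomes had the smallest p (1.41, adjusted p = 0.0853). Their part in the Hoxd13 difference was not tested.

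The other Hoxd13 probe set had its 2 highest values in siDdb1, 4.64 and 4.69, against 4.11 to 4.41 on the other 6 arrays. Its difference from siNonTarget was smaller, 0.31 (SE 0.13, limma adjusted p = 0.56), and that from siSox2 was 0.54 (adjusted p = 0.0552). The mean over both probe sets gave 0.77 in siDdb1 against siNonTarget, a move of more than 1.5 times, with an adjusted p over genes of 0.0862. Across the other 15 Hox probe sets, 9 had the same sign as the representative probe set in siDdb1, 8 in siPsmd14 and 7 in siSox2, and none was called against siNonTarget. None of the 15 belonged to Hoxc13, so its siPsmd14 call could not be set against another probe set.

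The promoters of Hoxd13 and of its 3′ neighbour Hoxd12 are shown because Hoxd13 passed the test and Hoxd12, next to it in the cluster, did not. Each is the plus strand of GRCm38.p6 from RefSeq, 250 bases before to 50 bases after the gene's start, at chr2:74667975-74668274 for Hoxd13 and chr2:74674763-74675062 for Hoxd12. Capitals mark TATAAA and CCAAT on either strand, the letters found among 4 motifs searched.
Hoxd13: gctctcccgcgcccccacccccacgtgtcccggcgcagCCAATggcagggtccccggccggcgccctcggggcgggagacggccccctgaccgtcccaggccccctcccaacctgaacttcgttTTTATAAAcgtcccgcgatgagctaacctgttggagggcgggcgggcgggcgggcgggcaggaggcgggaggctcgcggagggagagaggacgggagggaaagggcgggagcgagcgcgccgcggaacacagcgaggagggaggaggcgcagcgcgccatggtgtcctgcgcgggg
Hoxd12: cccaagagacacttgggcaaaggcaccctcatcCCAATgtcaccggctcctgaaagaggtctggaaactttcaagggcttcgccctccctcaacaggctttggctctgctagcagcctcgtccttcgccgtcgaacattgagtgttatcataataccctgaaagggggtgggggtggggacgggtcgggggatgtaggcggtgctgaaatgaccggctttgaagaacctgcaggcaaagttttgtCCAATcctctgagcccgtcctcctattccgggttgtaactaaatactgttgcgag
The Hoxd13 window held 37 CpG dinucleotides and 74.3% G and C, and the Hoxd12 window 13 CpG and 55.0%. Over the 21 windows found for 19 measured Hox genes the median was 15 CpG, against 7 over all 32851 windows of the table. Hoxc13, the other called Hox gene, had no window among them. TATAAA stood in the Hoxd13 window on both strands, in overlap, and was present in 2 of the 21 Hox windows and 13.6% of all windows. CCAAT stood in both windows shown, in 12 of the 21 Hox windows and in 37.4% of all. The AP-1 motif TGACTCA was in 1 Hox window, that of Hoxd11, and in 5.20% of all, and the Sox motif CATTGTT was in 0 of the 21 and 3.78% of all. These matches describe letters in the windows only.

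Hoxd12, a limb gene like Hoxd13, read 3.62 and 3.70 in siDdb1 and 3.47 and 3.78 in siNonTarget, a difference of 0.04 with an interval of -0.28 to 0.35. On the far side of Hoxd13 lies Evx2, a homeobox gene next to the HoxD cluster, which read 4.95 and 4.67 in siDdb1 and 4.85 and 4.90 in siNonTarget (-0.06, limma adjusted p = 0.967). Both neighbours thus overlapped siNonTarget where Hoxd13 did not. Hoxc13 read 5.54 and 4.86 in siDdb1, 0.56 above siNonTarget (SE 0.26, adjusted p = 0.644) and above it by only 0.02 at the nearest arrays. That Hoxc13 difference was 0.22 without siDdb1 replicate 1 and 0.90 without siDdb1 replicate 2. Hoxc10 read 3.59 and 3.33 in siDdb1 and 3.07 and 3.10 in siNonTarget (0.38, adjusted p = 0.548). Hoxb9 read 4.80 and 4.07 in siDdb1 and 3.89 and 4.30 in siNonTarget (0.33, adjusted p = 0.86), and without siDdb1 replicate 1 its difference was -0.03.

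By their brightest probe sets, the HoxC and HoxD genes of siDdb1 lay above siNonTarget. Apart from Hoxd13 (1.22) and Hoxc13 (0.56), each did so by less than 0.4. All 7 HoxC genes had differences above 0 (median 0.27, 0.07 to 0.56), and so had all 8 HoxD genes (median 0.23, 0.04 to 1.22). Other probe sets of Hoxc5 (-0.045) and Hoxd8 (-0.094) lay below 0. A further probe set of Hoxc5 (0.035), those of Hoxc6 (0.028 and 0.242) and that of Hoxd13 (0.314) lay above 0. Of the HoxA genes 4 of 9 were above 0 (median -0.01), and of the HoxB genes 5 of 9 (median 0.08). Over all named genes 46.8% were above 0 and the median was -0.02. With array medians subtracted or quantile normalization the counts of HoxC and HoxD were the same, and leaving out siNonTarget replicate 1, siNonTarget replicate 2 or siDdb1 replicate 2 left 7 of 8 HoxD genes above 0. The 2 groups did not overlap for 13 of the 33 genes on the higher side and for 2 on the lower side, where 19.8% and 22.3% of all named genes did not overlap. At an unadjusted p of 0.05 there were 3 Hox genes, Hoxd13, Hoxc10 and Hoxd8, all higher, and 9.86% of all named genes. Hoxd8 read 3.99 and 3.87 in siDdb1 and 3.57 and 3.69 in siNonTarget by its brightest probe set. In siSox2, 5 of 7 HoxC and 4 of 8 HoxD genes were above 0, and in siPsmd14 4 of 7 and 5 of 8, and all 3 comparisons share the siNonTarget arrays. No test was made over the members of a cluster.

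**Figure D3:**
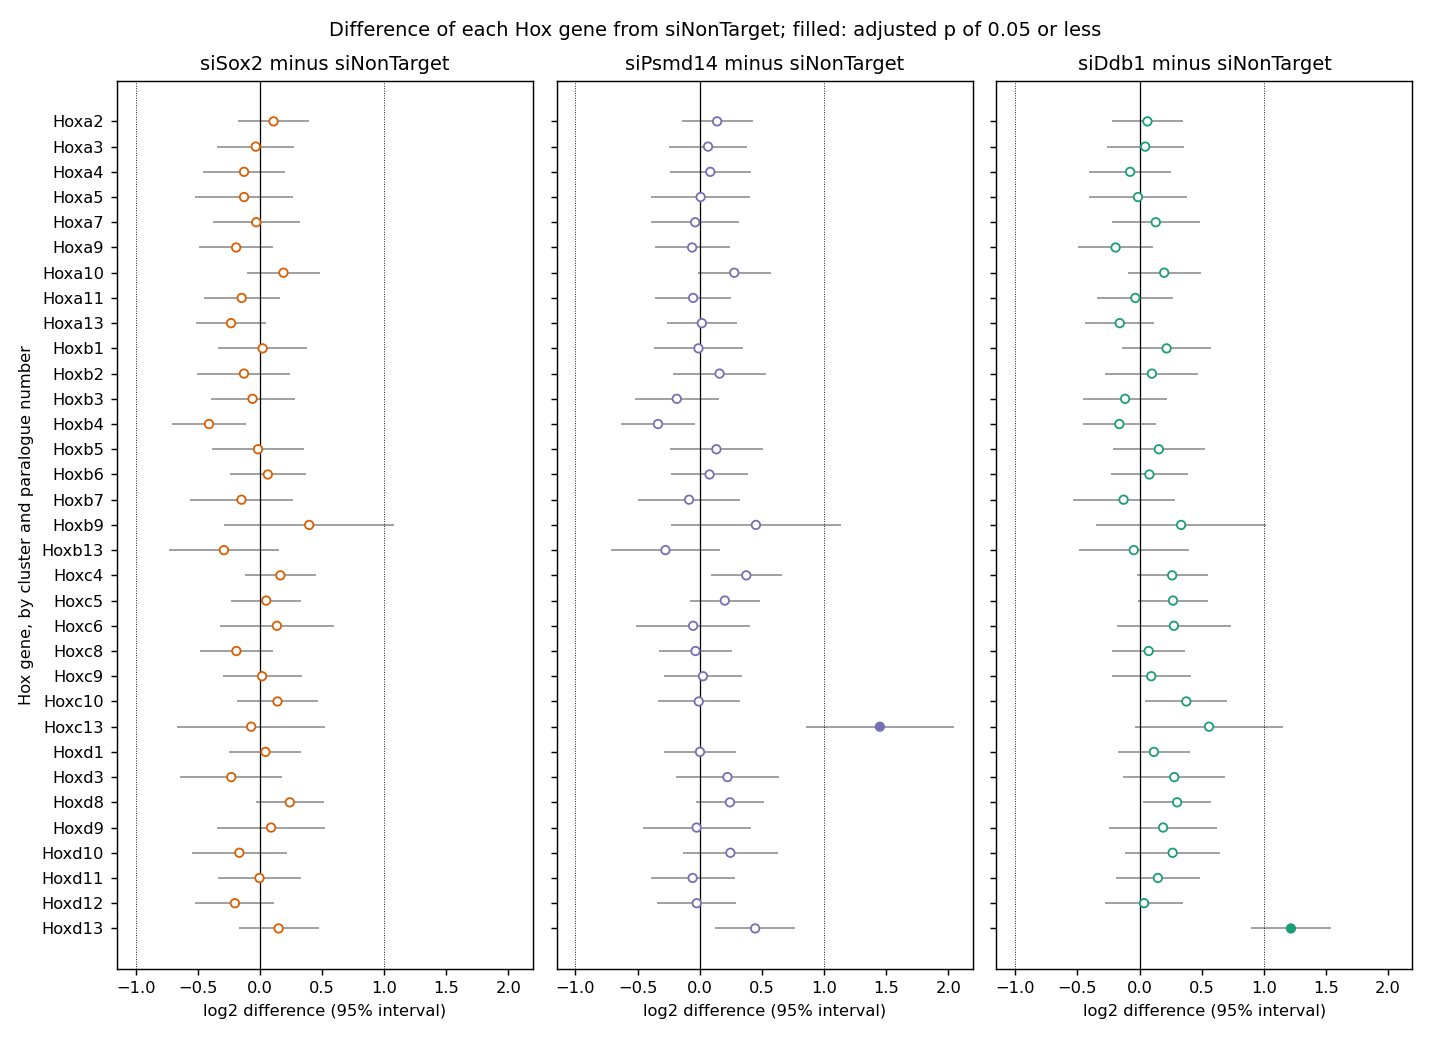
Log2 difference of each Hox gene from siNonTarget in siSox2, siPsmd14 and siDdb1 (points) with the 95% interval from the limma model (bars), genes in cluster and paralogue order; filled points had an adjusted p of 0.05 or less and dotted lines mark 2-fold. Hoxc13 is filled in siPsmd14 (1.45) and Hoxd13 in siDdb1 (1.22), and no Hox gene is filled in siSox2.

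Set against siSox2, siPsmd14 had a call at Hoxc13 and siDdb1 a call at Hoxd13. Against siSox2, 25 of the 33 Hox genes lay above 0 in siPsmd14 (median 0.09) and 29 in siDdb1 (median 0.11). Of all named genes, 52.7% and 53.7% lay above 0 in these comparisons. In siPsmd14 against siDdb1 it was 12 of 33 (median -0.06) and 49.6% of all named genes. No test was made over these members. In siPsmd14 against siSox2, Hoxc13 was higher by 1.52 (SE 0.26, 2.87-fold, limma adjusted p = 0.0203), the only Hox gene called of 33, where 1.98% of all named genes were called higher and 2.05% lower. This call ended without siSox2 replicate 1 (adjusted p = 0.0561), siSox2 replicate 2 (adjusted p = 0.143) or siPsmd14 replicate 1 (1.22, adjusted p = 0.119). In siDdb1 against siSox2, Hoxd13 was higher by 1.07 (SE 0.14, 2.09-fold, limma adjusted p = 0.0065), again the only Hox gene called, where 2.03% of all named genes were called higher and 2.60% lower. Of the 8 arrays, leaving out siDdb1 replicate 1 ended this call (1.005, adjusted p = 0.0606), and leaving out any other array gave an adjusted p of 0.011 to 0.0266. In siPsmd14 against siDdb1, 0 Hox genes were called by limma, also with trend and robust settings, where 0.588% of all named genes were called, and 3 had an unadjusted p of 0.05 or less, as had 12.4% of all named genes. These were Hoxd13 (-0.77, SE 0.14, adjusted p = 0.069), Hoxc13 (0.89, SE 0.26, adjusted p = 0.229) and Hoxc10 (-0.38, adjusted p = 0.371). For Hoxd13 the values were 4.72 and 4.78 in siPsmd14 and 5.58 and 5.46 in siDdb1, which did not overlap. The groups did not overlap for 4 Hox genes on the higher side and 10 on the lower side, where 19.6% and 20.5% of all named genes did not overlap. These comparisons share arrays with those against siNonTarget and are not separate evidence.

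Regulators of Hox genes were read from lists, and each count is to be set against the share over all named genes. That share was 4.28% called in siSox2, 1.70% called higher and 0.187% lower in siPsmd14, and 0.044% called higher and 0 lower in siDdb1. At an unadjusted p of 0.05 it was 19.1%, 17.1% and 9.86% in the same order of groups. Most lists held 0 to 3 calls, and the difference between a list and the Hox genes was not tested. Cdx2 read 6.72 and 6.86 in siSox2, 5.63 and 5.40 in siPsmd14, 5.68 and 5.68 in siDdb1, and 5.10 and 5.19 in siNonTarget. It rose in siSox2 (1.65, SE 0.13, limma adjusted p = 0.00058), the only 1 of 6 measured Cdx and other ParaHox genes to pass there, and the call held without each array in turn. The differences of Cdx2 in siPsmd14 (0.37, adjusted p = 0.233) and siDdb1 (0.54, adjusted p = 0.288) did not pass. The mean over the Cdx2 probe sets gave 1.16 in siSox2 (limma adjusted p = 0.0027) and 0.26 in siDdb1. Its relatives Cdx1 and Cdx4 did not pass in any of the 3 knockdowns, and Cdx4 lay below the array median on all 8 arrays. Besides Cdx2, 6 of the 10 trophectoderm markers rose in siSox2, led by the placental gene Plac1 (75.1-fold), Krt7 (22.2-fold) and the trophoblast factor gene Ascl2 (11.3-fold). The summed intensity of the list was 13750 and 26330 in siSox2, against 1868 and 2145 in siNonTarget. The part of trophectoderm-marked cells in the Cdx2 rise was not tested.

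Of 17 measured genes of the retinoic acid pathway 2 fell in siSox2 and none rose (median -0.05, all genes -0.03). Crabp1, a cytoplasmic retinoic acid binding protein, read 5.84 and 5.90 in siSox2 and 7.55 and 7.96 in siNonTarget (-1.89, SE 0.20, limma adjusted p = 0.00221), and it passed without each array in turn. Rara, the retinoic acid receptor alpha gene, read 6.10 and 6.17 in siSox2 and 6.83 and 6.67 in siNonTarget (-0.62, adjusted p = 0.0478), and it missed the threshold without any 1 of the 8 arrays (adjusted p = 0.0553 to 0.243) with array medians subtracted (0.0656), with trend and robust settings (0.0853) and with only 4 arrays (0.0605). Of 8 neural markers 2 fell in the same arrays, the neural and eye factor gene Pax6 (-2.17, limma adjusted p = 0.0271) and the neuronal tubulin gene Tubb3 (-0.88, adjusted p = 0.00885). Both missed the threshold without either siNonTarget array or siSox2 replicate 2 (adjusted p = 0.0686 to 0.199), and the mean over the Pax6 probe sets gave -0.91 (adjusted p = 0.0672). Their part in the retinoic acid genes' fall was not tested. Rarb, a direct target of retinoic acid, lay between 3.42 and 3.69 on all arrays, below their medians. In siPsmd14 and siDdb1 limma called 0 of the 17 genes, with 3 and 2 at an unadjusted p of 0.05, against 17.1% and 9.86% of all named genes. The binding protein gene Crabp1 read 7.60 and 7.25 in siPsmd14 and 8.45 and 8.01 in siDdb1, which overlapped siNonTarget in siPsmd14 and lay above both of its arrays in siDdb1 (0.47, adjusted p = 0.595).

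Of 28 measured Polycomb genes all lay above the array median on all 8 arrays, in every group. In siSox2 Pcgf5, a subunit of a variant repressive complex 1 (1.04, limma adjusted p = 0.0124), and Yaf2, a partner of its ring finger proteins (1.02, adjusted p = 0.0185), rose and Phc1, a polyhomeotic subunit, fell (-0.65, adjusted p = 0.0486). In siPsmd14 Phf1, a partner of repressive complex 2, was the only Polycomb gene to pass, and it read 7.57 and 7.38 in siPsmd14 and 6.65 and 6.56 in siNonTarget (0.87, adjusted p = 0.0248). At a limma unadjusted p of 0.05 there were 7 of the 28 in siSox2 and 8 in siPsmd14. Of all named genes, 19.1% and 17.1% had that p in these comparisons, and the list was not tested against them. In siDdb1 limma called 0 of the 28, with 3 at an unadjusted p of 0.05, which is near the share of all named genes (0.044% called and 9.86%). Without siNonTarget replicate 2 none of the 4 passed, with adjusted p of 0.134 for Pcgf5, 0.154 for Yaf2, 0.305 for Phc1 and 0.204 for Phf1. Without siSox2 replicate 2 the 3 genes of siSox2 did not pass (0.115, 0.174 and 0.304), and without siPsmd14 replicate 1 or siNonTarget replicate 1 Phf1 did not (0.165 and 0.141). Yaf2 and Phc1 also missed it without siNonTarget replicate 1 (0.114 and 0.111), and Phc1 without any other single array (0.0514 to 0.125), with quantile normalization (0.0549) and with only 4 arrays (0.06).

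Of 15 measured genes of the MLL complexes and the demethylases that oppose Polycomb, limma called 0 in each knockdown, with 4, 3 and 0 at an unadjusted p of 0.05 in siSox2, siPsmd14 and siDdb1, against 19.1%, 17.1% and 9.86% of all named genes. Of 8 measured TALE cofactors, the Pbx, Meis and Pknox proteins that bind DNA beside Hox proteins, 0 were called in each, with 3, 0 and 1 at an unadjusted p of 0.05, and at the shares called over all genes a list of this size would often hold none. The cofactor gene Meis1 read 5.28 and 5.34 in siDdb1 and 4.38 and 4.90 in siNonTarget (0.67, limma adjusted p = 0.319), and its difference was 0.19 with the mean over its probe sets and 0.40 without siNonTarget replicate 1. Of 11 measured signals and factors of the posterior axis, Fgf17, a ligand of the embryonic tail, fell in siSox2 (-1.57, SE 0.18, adjusted p = 0.00318) and siPsmd14 (-0.96, SE 0.18, adjusted p = 0.0432). It read 6.56 and 6.37 in siSox2, 6.89 and 7.26 in siPsmd14, 7.06 and 7.44 in siDdb1, and 7.93 and 8.13 in siNonTarget, which was above all 6 knockdown arrays. The siSox2 call ended without siNonTarget replicate 2 (adjusted p = 0.062), and the siPsmd14 call without siNonTarget replicate 1 (0.171), siNonTarget replicate 2 (0.271), siPsmd14 replicate 1 (0.231) or either siSox2 array (0.0577). The siPsmd14 call of Fgf17 also ended under 5 of 12 alternative settings, the stricter thresholds among them. Over the 12 its difference ran from -0.96 to -0.77, with a limma adjusted p of up to 0.064. In siDdb1 none of the 11 passed, with 4 at an unadjusted p of 0.05. The leading differences there were the Wnt ligand gene Wnt5a, at 5.97 and 5.44 in siDdb1 and 4.26 and 4.67 in siNonTarget (1.23, adjusted p = 0.172; 0.72 with the mean over its probe sets), and the Notch ligand gene Dll1, at 7.68 and 7.48 in siDdb1 and 5.96 and 6.54 in siNonTarget (1.32, adjusted p = 0.25). Both genes were higher on both siDdb1 arrays than on the other 6.

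**Figure D4:**
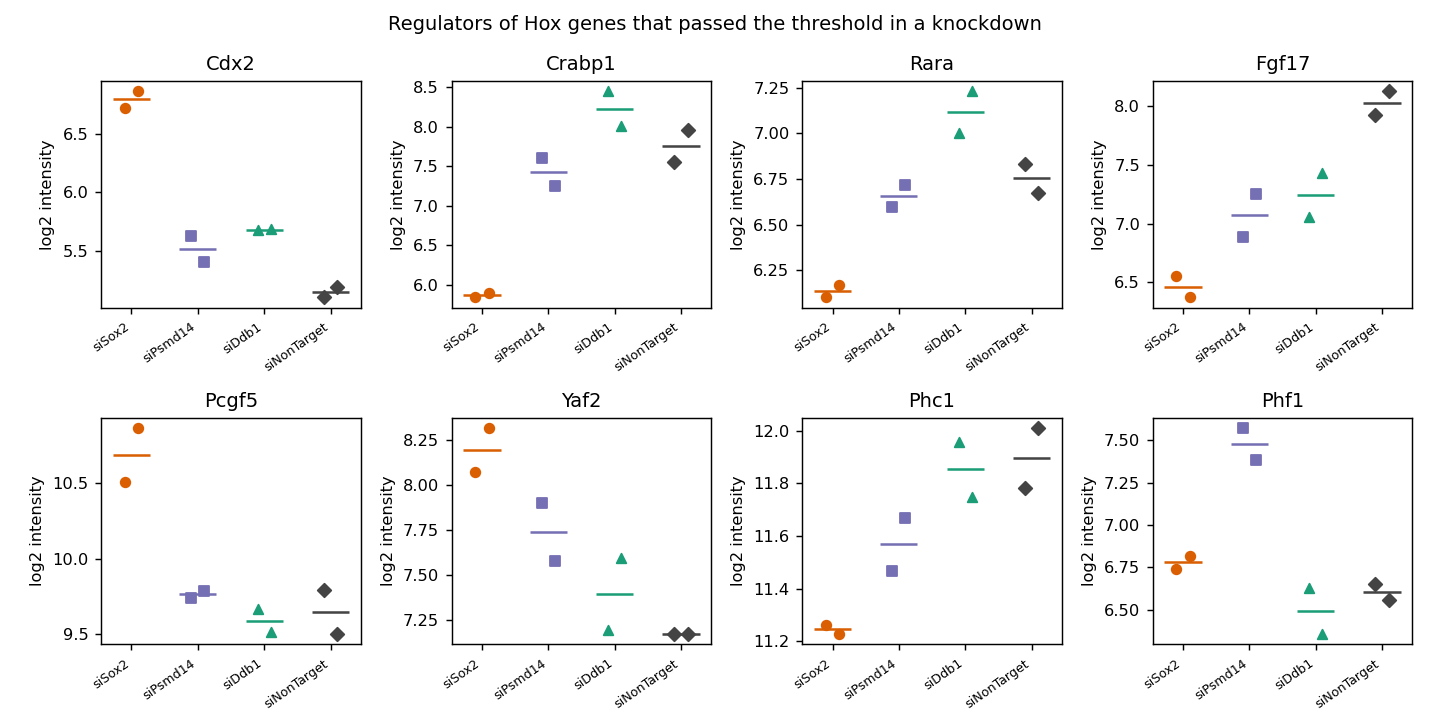
Log2 intensity on each array (points) with the mean of 2 arrays (lines), by siRNA group, of the 8 listed Hox regulators and trunk signals that passed the threshold in siSox2 or siPsmd14; vertical axes differ between panels. Cdx2 is highest in siSox2 (6.72 and 6.86), Crabp1 lowest there (5.84 and 5.90), and Phf1 highest in siPsmd14 (7.57 and 7.38).

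Of 11 measured genes that flank the clusters limma called 0 in each, with 1, 2 and 0 at an unadjusted p of 0.05 in siSox2, siPsmd14 and siDdb1. With 4.28% of all named genes called in siSox2, and fewer in siPsmd14 and siDdb1, a count of 0 of 11 is near the background. Evx1, a homeobox gene beside HoxA, lay below the array median on all 8 arrays (3.58 to 4.07). The smallest p among them in siSox2 was that of Hibadh, a valine breakdown enzyme gene beside HoxA, at -0.52 (adjusted p = 0.131).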

How the data were processed

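RNA of 8 arrays was compared. The authors deposited intensity values on a linear scale, and the submitters' processing notes name RMA as the tool. Its version and settings: not given in the sources used here. RMA usually equalises arrays, so each difference is relative to most other probe sets. Log2 was taken, and 64 control probe sets were left out, leaving 45037. GEO's platform annotation gave 34945 of them 1 symbol, 932 several and 9160 none, and 34741 were looked up by Entrez identifier in the RefSeq table (GRCm38.p6), with 0 renamed. Each gene took its brightest probe set (mean of 8 arrays). The 8 arrays entered 1 model (limma 3.58.1, R 4.3.3, lmFit and eBayes without trend, 9.02 total degrees of freedom), with Benjamini-Hochberg adjustment over all probe sets. The scripts were tested on simulated data. The number of arrays limits precision: the median SE of a Hox difference was 0.145.

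Samples were grouped by title, and 6 comparisons were made. The members and the 12 lists were chosen with earlier results of these data known. Values on every array were given for Hox genes called in any comparison and for the 4 highest means. For the 4 largest differences per knockdown and for neighbours of called genes, values were given at least for that knockdown and siNonTarget. Up to 3 called members per list, or the 2 smallest p, were eligible for naming. Other genes named (Hoxd3, Hoxd10, Pou5f1, Nanog, Cdx4, Rarb, Evx1, Evx2, Acta2, Col1a1, Col1a2, Col3a1, Twist2 and Prrx1) were chosen after their values were seen. Replicate deviations with the same number correlated at -0.217 to 0.242 over pairs of groups, and the labels do not pair them, so the number was not a block. Alternatives were filters on dim probe sets, median and quantile scaling, trend, weights, 4 arrays, the block, probe sets per gene, thresholds and leaving out arrays.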

Additional observations from a re-analysis of the deposited data

How the results depend on the processing

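In siSox2 against siNonTarget and siPsmd14 against siDdb1 the count of Hox genes called was 0 under each alternative run and without each array. The count of 1 elsewhere became 0 at an adjusted p of 0.01 in siPsmd14 against siNonTarget and against siSox2 and in siDdb1 against siNonTarget. It became 0 in siDdb1 against siNonTarget with only 4 arrays or the mean of all probe sets of a gene, and in both siDdb1 comparisons that had a call with the dimmer 50% or means under 5 left out, which remove Hoxd13 itself. Without each array in turn these 4 counts ranged from 0 to 1. No pairing is given by the labels: with the replicate block the siDdb1 count against siNonTarget was 0 (Hoxd13 1.22, limma adjusted p = 0.073), and the block changed no other Hox call. Of the other genes named, it ended the siSox2 calls of Rara (0.0606), Phc1 (0.0647) and Esrrb (0.0523). A block with the siDdb1 numbers crossed, added after the data were seen, left 1 call there. The median Hox difference moved by more than the spread between replicates (SD 0.03) to -0.07 in siSox2 against siNonTarget with means under 5 left out. It moved to -0.015 in siPsmd14 against siNonTarget with the dimmer 50% left out. In siPsmd14 against siSox2 it was 0.131 with means under 5 left out, 0.058 with quantile normalization and 0.055 with the mean of all probe sets. In siPsmd14 against siDdb1 it was -0.024 with the dimmer 50% left out, 0.02 with means under 5 left out and -0.02 with the mean of all probe sets. The filters left 6 and 5 Hox genes. Without each array the medians ranged from -0.069 to 0.028 (siSox2), 0.012 to 0.125 (siPsmd14) and 0.086 to 0.172 (siDdb1) against siNonTarget, 0.067 to 0.11 and 0.094 to 0.165 for siPsmd14 and siDdb1 against siSox2, and -0.066 to -0.028 for siPsmd14 against siDdb1. Single Hox genes were followed without each array only where called or among the 4 largest differences per knockdown. Of these, Hoxb13 in siSox2 (-0.606 to 0.028) and Hoxb9 in siDdb1 (-0.031 to 0.7) changed sign without an array. The cause was not tested.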

Other observations

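Transcripts antisense to Hox genes were read by 5 probe sets, for Hoxa11os, Hoxb5os and Hoxd3os1. None was called by limma in any of the 6 comparisons, with 0 at an unadjusted p of 0.05 in each. Of all named genes, 19.1% in siSox2, 17.1% in siPsmd14 and 9.86% in siDdb1 had that p against siNonTarget. At such shares a list of 5 would often hold none, so the counts of 0 do not show that these transcripts were unchanged. The smallest p was that of a Hoxd3os1 probe set in siDdb1 against siNonTarget (-0.36, limma unadjusted p = 0.0518), where the groups did not overlap. All 5 probe sets lay below the array median on every array. Their differences from siNonTarget ran from -0.16 to 0.05 in siSox2, -0.06 to 0.07 in siPsmd14 and -0.36 to 0.11 in siDdb1.

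The genes Hoxd3 and Hoxd10, which pattern the upper neck and the lumbar cord, had their lowest group means in siSox2. This was not particular to them, as other Hox genes, Hoxa13, Hoxb4 and Hoxc8 among them, also had their lowest group mean there. Hoxd3 read 3.52 and 3.84 in siDdb1, 3.47 and 3.78 in siPsmd14 3.36 and 2.98 in siSox2, and 3.32 and 3.49 in siNonTarget, which overlapped siSox2 (siSox2 minus siNonTarget -0.23). Its differences from siSox2 were 0.51 in siDdb1 (limma adjusted p = 0.218) and 0.45 in siPsmd14 (adjusted p = 0.268), and neither passed. Hoxd10 read 3.26 and 3.11 in siDdb1, 2.94 and 3.39 in siPsmd14 2.66 and 2.85 in siSox2, and 2.85 and 2.99 in siNonTarget (siSox2 minus siNonTarget -0.17). The differences from siSox2 were 0.43 in siDdb1 (adjusted p = 0.269) and 0.41 in siPsmd14 (adjusted p = 0.276). All of these values lay below the array medians, and the 2 comparisons share the siSox2 arrays.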
